A study of Mus musculus and Bos taurus with 6 samples.

Results

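The family of miR-148 and miR-152 was examined in 6 small RNA libraries of the lactating mammary gland. The members were all lines named miR-148a, miR-148b or miR-152 in the deposited lists, from either arm of the precursor hairpin, with the mouse prefix mmu- or the bovine prefix bta-. The rule uses names and no measured value, and it found 9 names of the 3243 listed over both species. Of these, 6 were mouse names, with a 3p and a 5p strand for each hairpin, and 3 were bovine names, all 3p strands.

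Both mouse libraries were made from whole abdominal (number 4) glands of primiparous FVB/N mice at lactation day 12, the lymph node having been removed, 1 mouse for each library. Both AGO2 libraries hold small RNA co-precipitated with the Argonaute 2 monoclonal antibody clone 2E12-1C9 from glands of FVB/N mice at the same stage. The paper describes left and right glands of 2 primiparous mice, and 2 animals for the AGO2 libraries. Which mouse each came from, and whether animals are shared with the mouse libraries, is not given in the sources used here. Both bovine libraries come from udder biopsies of multiparous Holstein cows in mid-lactation on a low-forage diet (forage to concentrate ratio 46 to 54). Each is a pool of 2 cows, without immunoprecipitation. RNA was isolated with 1 kit for mouse and AGO2 samples and another for bovine samples. Species, parity, tissue sampling, kit and pooling therefore cannot be told apart. AGO2 libraries also differ from mouse libraries by the lysis and spin before precipitation. The paper reports a lower RNA concentration in the precipitates as well. No control precipitate is among the 6 libraries, so these steps cannot be told apart from binding to Argonaute 2. Each gland is a mixture of cell types, and fewer cells of a type cannot be told apart from less RNA per cell. With 2 libraries per group, p-values measure only the spread between these samples, and an exact permutation test of 2 against 2 could not fall under 0.33.

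MicroRNA precursors are cut into short duplexes, of which 1 strand, the guide, is kept by an Argonaute protein while the other, the passenger, is mostly discarded. The guide finds its targets mainly through nucleotides 2 to 8, the seed, so that miRNA with the same seed are grouped as a family with overlapping targets. In this family the 3p strand is the usual guide. miR-148a is known as an abundant miRNA of milk and of the lactating gland, and DNA methyltransferase 1, the enzyme that keeps methylation patterns through cell division, is among the known targets of the family.

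The 3 mouse guides are printed 5′ to 3′ with the seed in capitals, because the shared seed defines the family and the bases outside it are what separates the counts of its members:
mmu-miR-148a-3p: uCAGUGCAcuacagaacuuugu
mmu-miR-148b-3p: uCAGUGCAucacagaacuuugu
mmu-miR-152-3p: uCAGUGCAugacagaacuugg
They were taken from RefSeq (GRCm38.p6), in which all 6 mouse members had an entry, equal to the sequence in the deposited lists. Counted from 1 at the 5′ end, miR-148b-3p differed from miR-148a-3p by C9U and U10C. miR-152-3p differed from miR-148a-3p by C9U, U10G and U20G over the 21 bases compared. miR-152-3p differed from miR-148b-3p by C10G and U20G. How reads with mismatches were divided among such near-identical strands is not given in the sources used here, so the counts of the less abundant members carry that uncertainty. Bovine guides had 0 differences from their mouse counterparts over the compared bases, 22 for miR-148a and miR-148b and 21 for miR-152, whose bovine entry is listed with 22 nt:
bta-miR-152: uCAGUGCAugacagaacuuggg

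Counts assigned to listed miRNA summed to between 3909166 and 10613807 per library, with the 2 lowest sums in the AGO2 libraries. Levels are given as reads per 1000000 of these sums (RPM), and 0 counts would allow a level of up to 3 counts, which was between 0.283 and 0.767 RPM. PCR copies were not marked by molecular identifiers, so intervals and limits cover the error of counting alone. The labelled tissue was set against marker miRNA: all 6 epithelial markers (the miR-200 family with miR-141 and miR-205) had counts in every library, and they summed to 159803 and 188746 RPM in mouse, 338037 and 368284 RPM in AGO2, and 77607 and 79458 RPM in bovine. The liver marker miR-122-5p lay between 0 and 2.87 RPM. The 3 erythroid markers summed to 13343 and 6504 RPM in mouse, 32468 and 15527 RPM in AGO2, and 1709 and 1098 RPM in bovine. The 4 smooth muscle and stromal markers summed to 54217 and 70847 RPM in mouse, 36639 and 34223 RPM in AGO2, and 77751 and 63436 RPM in bovine. The 2 endothelial markers summed to 24194 and 34265 RPM in mouse, 29280 and 28819 RPM in AGO2, and 62356 and 55972 RPM in bovine. For 5 leukocyte markers the sums were 1263 and 2123 RPM in mouse, 2351 and 2971 RPM in AGO2, and 2553 and 3285 RPM in bovine. For 3 skeletal muscle markers they were 163 and 213, 27.9 and 70.2, and 727 and 782 RPM, in the same order. In AGO2, epithelial, erythroid and leukocyte sums lay above the mouse range, and stromal and skeletal muscle sums below it. Members did not all follow their sum. miR-142-5p, miR-150-5p and miR-223-3p were above both mouse libraries, but miR-155-5p was below (14.8 and 8.33 RPM against 30.5 and 46.1 RPM). Of the erythroid markers only miR-144-3p was above both, and of the stromal only miR-143-3p below both. miR-1-3p was below and miR-133a-3p above. The endothelial miR-126-3p was below (6776 and 6711 against 16270 and 20468 RPM), and miR-126-5p above. In bovine, endothelial, leukocyte and skeletal muscle sums lay above the mouse range, and epithelial and erythroid sums below it. Here miR-142-5p, miR-155-5p and miR-150-5p (1347 and 2007 against 250 and 260 RPM) were above both mouse libraries. miR-223-3p and miR-142-3p (265 and 305 against 399 and 986 RPM) were below both. The erythroid miR-486-5p lay within the mouse range. In AGO2 the epithelial sum was mostly miR-200a-3p (267861 and 255991 RPM). In bovine miR-200a-3p was at 13948 and 13093 RPM, and miR-200c-3p was the largest member. The epithelial markers did not move together. In AGO2, miR-200b-3p (11544 and 5994 RPM against 33569 and 18791 RPM in mouse), miR-200c-3p and miR-429-3p were below both mouse libraries. In bovine, miR-200c-3p (24588 and 30030 RPM against 17888 and 5127 RPM in mouse) and miR-205-5p were above them. The part of these markers in the differences described here was not tested.

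miR-148a-3p carried most of the family in every library. It stood at 87788 and 85990 RPM in mouse, 98175 and 94608 RPM in AGO2, and 73702 and 74936 RPM in bovine. The libraries of each group lay close together and the 3 groups did not overlap. Such separation was common among tested miRNA in normalised counts. Both AGO2 libraries lay above both mouse libraries for 33.1% and below them for 39.8%. Both bovine libraries lay above them for 46.8% and below them for 37.4%. For miR-148a-3p, AGO2 was highest and bovine lowest. Relative to all sized reads this order turned, with 83161 and 82861 RPM in mouse, 72305 and 64727 RPM in AGO2, and 70157 and 71336 RPM in bovine, so that mouse was highest and AGO2 overlapped with bovine. Over the listed miRNA the mean was 86889 ± 1272 RPM in mouse, 96392 ± 2522 RPM in AGO2 and 74319 ± 872 RPM in bovine (SD, n = 2 each). By level it ranked 1 and 3 among the miRNA of the mouse libraries, 2 and 3 in AGO2, and 1 in both bovine libraries.

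Its neighbours in that order were not all separated from it. In mouse, miR-200a-3p, an epithelial miRNA, was measured at 75449 and 118479 RPM. miR-146b-5p was measured at 85224 and 101226 RPM. Both ranges spanned the values of miR-148a-3p, so the order at the top of the mouse list lay within the spread between libraries. In AGO2, miR-200a-3p stood far above at 267861 and 255991 RPM, while miR-141-3p, at 49621 and 100647 RPM, overlapped with miR-148a-3p. In bovine, miR-26a at 66943 and 72194 RPM lay just under miR-148a in both libraries, and let-7a-5p reached 74007 RPM in 1 of them.

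miR-152-3p was the second member in all 6 libraries. It stood at 4464 and 4682 RPM in mouse, 2067 and 2111 RPM in AGO2, and 1981 and 1848 RPM in bovine. Both mouse libraries were far above the other 4. Among tested miRNA they lay above both AGO2 libraries for 39.8% and above both bovine libraries for 37.4%. The AGO2 and bovine ranges of miR-152-3p lay close together without overlapping. The means were 4573 ± 154, 2089 ± 30.8 and 1914 ± 94.2 RPM (SD, n = 2 each), which made the mouse mean 2.19 times the AGO2 mean and 2.39 times the bovine mean. Its rank by mean level was 43 in mouse, 51 in AGO2 and 61 in bovine.

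miR-148b-3p was the least abundant guide in all 6 libraries. It stood at 1298 and 1724 RPM in mouse, 1032 and 1082 RPM in AGO2, and 1170 and 1015 RPM in bovine. The mouse libraries differed from each other by 1.33 times. Both lay above the other 4, to which the shares given for miR-152-3p apply too, while AGO2 and bovine overlapped. The means were 1511 ± 301, 1057 ± 35.6 and 1093 ± 110 RPM (SD, n = 2 each). All 3 guides were thus among the 164, 156 and 167 miRNA with a mean of at least 100 RPM in mouse, AGO2 and bovine.

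**Figure D1:**
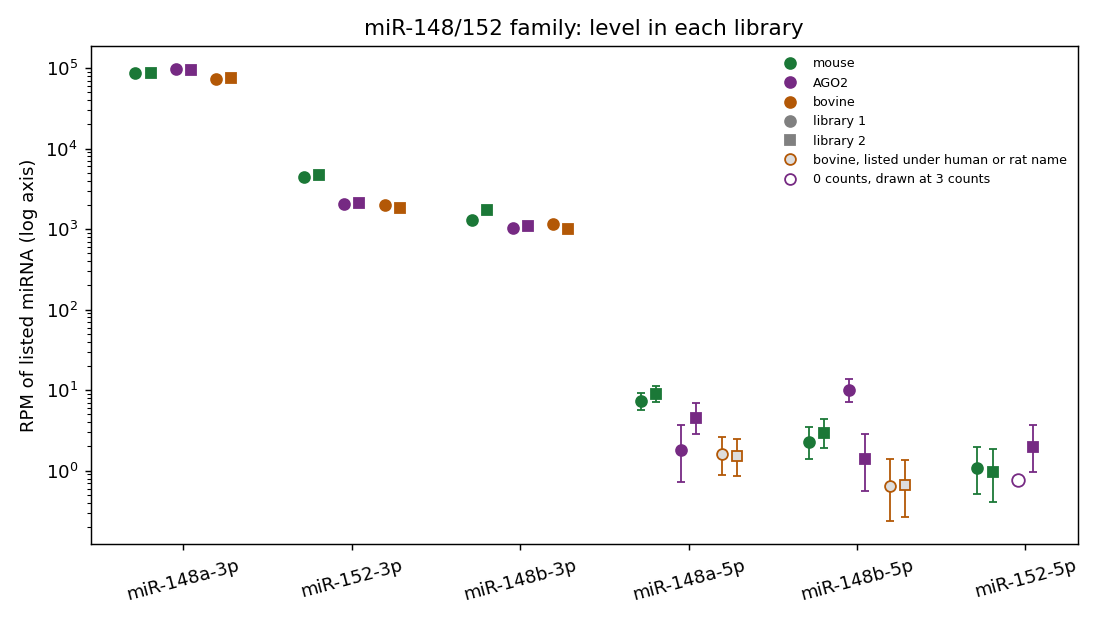
RPM of the family members in each library, on a log axis, with exact 95% Poisson intervals, circles for library 1 and squares for library 2. The 3 guide (3p) strands lie between 1015 and 98175 RPM and the passenger (5p) strands at or under 9.98 RPM, the open circle being a count of 0 drawn at its limit of 0.767 RPM.

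Since the 3 guides share the seed, their sum is the level of the seed family. It was 92973 ± 816 RPM in mouse, 99537 ± 2456 RPM in AGO2 and 77326 ± 668 RPM in bovine (SD, n = 2 each). No other listed miRNA of either species had the same nucleotides 2 to 8. Among the seeds of all listed miRNA, that of the family ranked 4 by summed level in mouse, 2 in AGO2 and 3 in bovine. With nucleotides 2 to 7 alone, the family gained only mmu-miR-1960, with 4 counts in mouse library 1 and 0 in the other mouse and AGO2 libraries, and 1 predicted bovine miRNA with 1 count. Relative to all reads of the sized libraries, including those not assigned to a miRNA, the order of mouse and AGO2 turned, with 88827 RPM in mouse, 70749 RPM in AGO2 and 73609 RPM in bovine.

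The composition of the family can be read within a library, where no scaling between libraries enters. miR-148a-3p made up 93.8% and 93.1% of the 3 guides' counts in mouse. It made up 96.9% and 96.7% in AGO2, and 95.9% and 96.3% in bovine. The remainder was mostly miR-152-3p, at 4.77% and 5.07% in mouse, 2.04% and 2.16% in AGO2, and 2.58% and 2.37% in bovine. The mouse share of miR-152-3p was above that of the other 4 libraries, and its lowest exact 95% interval in mouse (4.73 to 4.82%) did not reach the highest elsewhere (2.54 to 2.61%, bovine library 1).

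For each count of miR-152-3p there were 19.7 and 18.4 counts of miR-148a-3p in mouse. There were 47.5 and 44.8 in AGO2, and 37.2 and 40.6 in bovine. This ratio separated all 3 groups, with mouse lowest and AGO2 highest. Against miR-148b-3p the ratio was 67.6 and 49.9 in mouse, 95.2 and 87.4 in AGO2, and 63.0 and 73.8 in bovine, so that AGO2 lay above the others while mouse and bovine overlapped. Between the minor members, miR-152-3p outnumbered miR-148b-3p by 3.44 and 2.72 to 1 in mouse, 2.00 and 1.95 to 1 in AGO2, and 1.69 and 1.82 to 1 in bovine.

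**Figure D2:**
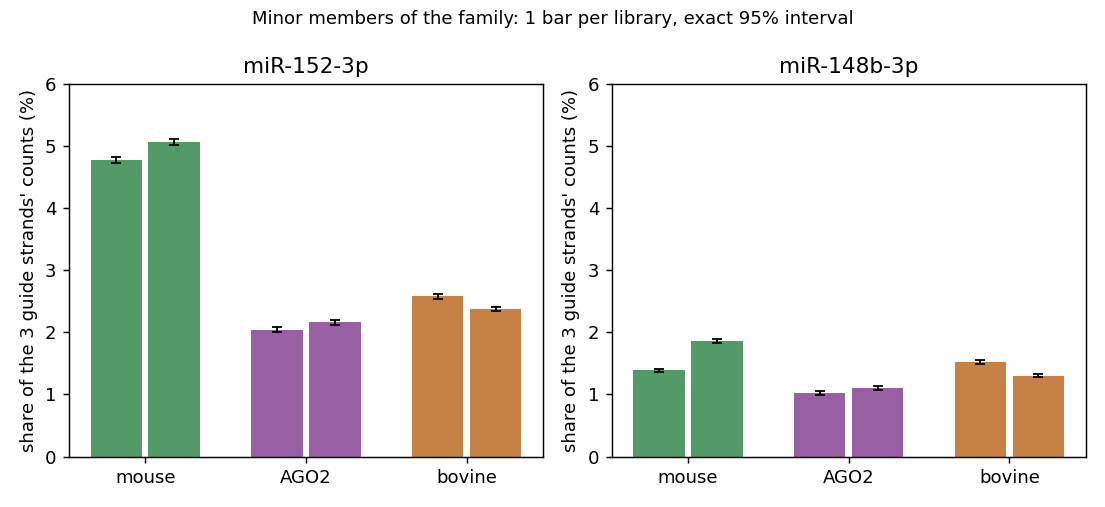
Share of miR-152-3p and of miR-148b-3p in the summed counts of the 3 guides, in percent, with 1 bar per library and exact 95% binomial intervals as black bars. The mouse bars of miR-152-3p stand at 4.77 and 5.07%, above the 4 other libraries, which lie between 2.04 and 2.58%.

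The comparison of AGO2 with mouse libraries asks which miRNA were more or less abundant in the Argonaute 2 precipitate than in the whole gland. None of the 3 guides passed the test, while 27.8% of the 299 miRNA tested did (15.4% higher and 12.4% lower in AGO2). These p-values and the log2 fold changes are from edgeR's quasi-likelihood test with TMM normalisation, adjusted by Benjamini and Hochberg. The fit took the study's minimum on the highest count of a miRNA in the 4 libraries, and the lowest such count among those tested was 176. The 3 passenger strands were below it and were not tested.

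In that fit miR-148a-3p was at 81003 and 84293 normalised counts per 1000000 (CPM) in mouse and at 99633 and 104132 in AGO2. Both AGO2 libraries were above both mouse libraries, as for 33.1% of tested miRNA. Its log2 fold change was 0.30 (SE 0.28, adjusted p = 0.402). miR-152-3p was at 4119 and 4590 CPM in mouse and at 2098 and 2323 CPM in AGO2. Its log2 fold change was -0.98 (SE 0.51, adjusted p = 0.147), with both AGO2 libraries below both mouse libraries, as for 39.8% of tested miRNA. For miR-148b-3p the log2 fold change was -0.37 (SE 0.57, adjusted p = 0.611), and without AGO2 library 1 it was 0.04. The median log2 fold change over all tested miRNA was -0.12. Under 10 alternative settings miR-148a-3p and miR-148b-3p never passed, and miR-152-3p passed under 1, the fit with the sample number as a block (adjusted p = 0.0290). In the AGO2 libraries miR-200a-3p alone held 267861 and 255991 RPM against 75449 and 118479 RPM in mouse, which limits what RPM of other miRNA can show there.

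The comparison of bovine with mouse asks how far the profiles of the species match. miR-152-3p was lower in bovine, and miR-148a-3p and miR-148b-3p did not pass the test. Mouse and bovine names were matched by name and arm, which gave 229 pairs, and the 139 that reached 100 RPM in any of the 4 libraries entered the test. Abundant miRNA named differently in the 2 species were thereby left out. Among them were miR-21-5p (miR-21a-5p in mouse), at 44399 and 60064 RPM in bovine, and both arms of miR-126 (miR-126a in mouse). Of these 55.4% were called (29.5% higher and 25.9% lower in bovine), so that 1 called member of 3 is no more than the background.

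miR-152-3p was at 5315 and 5978 normalised CPM in mouse and at 2144 and 2125 CPM in bovine, CPM here being relative to matched miRNA. Its log2 fold change was -1.40 (SE 0.28, adjusted p = 0.00871, edgeR), a level 2.64 times lower in bovine. Leaving out either bovine library ended the call, with log2 fold changes of -1.41 and -1.58 and adjusted p of 0.189 and 0.139. In such fits 1 group has a lone library, which is assumed to vary like the other group. The log2 fold change of miR-148a-3p was -0.37 (SE 0.24, adjusted p = 0.239). That of miR-148b-3p was -0.62 (SE 0.33, adjusted p = 0.158). Both bovine libraries were below both mouse libraries for all 3 guides, as for 37.4% of tested miRNA, and 46.8% had both bovine libraries above.

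For miR-148a-3p and miR-148b-3p the call depended on the settings. miR-148a-3p was called without the filter on low counts (-0.85, adjusted p = 0.0331) and with the study's own pairing of names (-0.72, adjusted p = 0.0348). miR-148b-3p was called without the filter (-1.11, adjusted p = 0.0333), with names of other species matched too and no minimum (-1.002, adjusted p = 0.0426), and without mouse library 1 (-0.94, adjusted p = 0.00124), where the spread came from the 2 bovine pools alone. The median log2 fold change over all tested miRNA was 0.21. It moved with the scaling, to 0.03 with the size factors of DESeq2 and to 0.36 with library totals alone. With other sets of miRNA it was 0.01 under the study's pairing (151 tested) and -0.15 without the filter (229 tested). With other species' names and no minimum (357 tested) it was -0.27. Why the guides changed more with these other sets was not tested. The log2 fold change of each guide stayed below 0 in all 10 alternatives. Both comparisons share the mouse libraries.

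**Figure D3:**
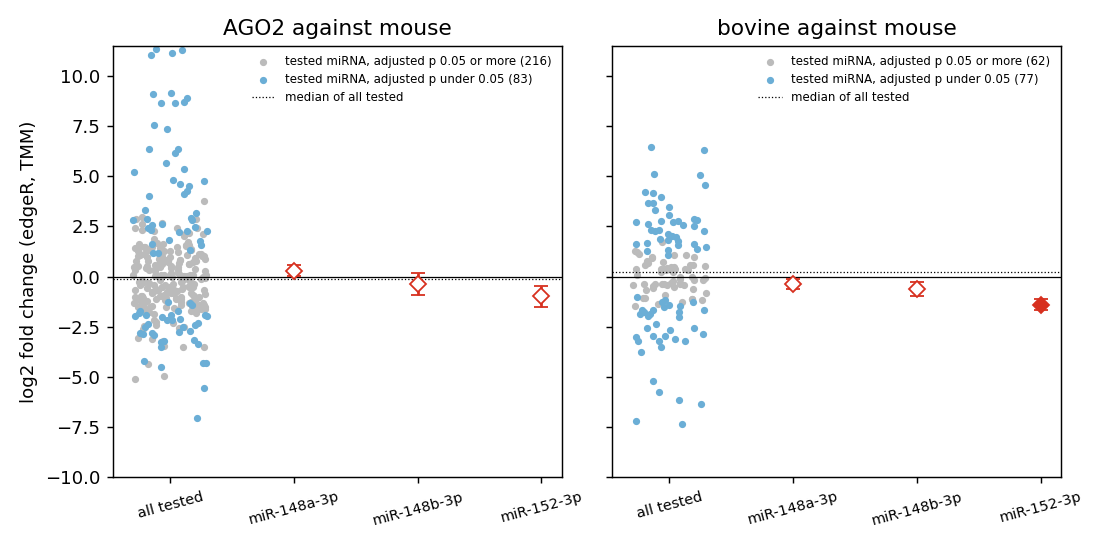
Log2 fold change of AGO2 against mouse (299 miRNA tested) and of bovine against mouse (139 miRNA tested), with each tested miRNA as a point, the median of all tested as a dotted line, and the 3 guides as diamonds with their SE, filled where the adjusted p was under 0.05. Only miR-152-3p in bovine against mouse, at -1.40, is filled.

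The other arm of each hairpin was nearly absent. The hairpins are shown with both mature arms in capitals, the 5p passenger first and the 3p guide second, since the share of each arm is what was measured:
Mir148a: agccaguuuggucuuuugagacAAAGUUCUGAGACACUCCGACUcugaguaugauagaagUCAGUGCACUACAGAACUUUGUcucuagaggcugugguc
Mir148b: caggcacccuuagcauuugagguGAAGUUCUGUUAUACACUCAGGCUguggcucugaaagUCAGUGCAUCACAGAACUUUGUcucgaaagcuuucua
Mir152: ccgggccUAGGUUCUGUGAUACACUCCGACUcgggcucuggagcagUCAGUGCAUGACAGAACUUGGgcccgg
The passenger seeds are not shared by all 3 hairpins, being AAGUUCU for miR-148a-5p and miR-148b-5p and AGGUUCU for miR-152-5p.

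miR-148a-5p had 68 and 76 counts in mouse beside 816413 and 721618 counts of its guide. It had 7 and 23 counts in AGO2. In the bovine lists this strand appeared only under the human name hsa-miR-148a-5p, whose 22 bases are those of the mouse strand, with 15 and 16 counts. Its share of the hairpin's counts was 0.00833 and 0.0105% in mouse, 0.00182 and 0.00482% in AGO2, and 0.00216 and 0.00201% in bovine. Both mouse libraries lay above the other 4 in this share. The exact intervals of mouse library 1 (0.00647 to 0.0106%) and AGO2 library 2 (0.00306 to 0.00724%) overlapped, however. Mouse and AGO2 were thus not fully separated within counting error. How often other hairpins separated the groups in this way was not tested. The ratio of guide to passenger was 12006 and 9495 in mouse, 54826 and 20737 in AGO2, and 46199 and 49710 in bovine.

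miR-148b had a larger passenger share than miR-148a in all 6 libraries. It had 21 and 25 counts of its 5p strand in mouse, 0.174 and 0.172% of the hairpin's counts. In AGO2 it had 39 and 7 counts, with shares of 0.958% (exact 95% interval 0.682 to 1.31%) and 0.128% (0.0515 to 0.264%). These 2 libraries did not overlap within counting error, so the AGO2 group gave no common value for this strand. In bovine it was listed as rno-miR-148b-5p, a rat name, with 6 and 7 counts, or 0.0545 and 0.0649%.

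miR-152-5p had 10 and 8 counts in mouse (0.0241 and 0.0204% of its hairpin). In AGO2 it had 0 and 10 counts, the 0 allowing a share of up to 0.0371% and the 10 being 0.0939%. It had no line in the bovine list. At these counts no difference between groups could be tested for the passengers in the fits with a minimum. Without any filter none of the 3 passed in AGO2 against mouse, at adjusted p of 0.80, 0.880 and 0.994. With other species' names matched and no minimum, the log2 fold change in bovine was -2.91 for miR-148a-5p (adjusted p = 0.00135, edgeR) and -2.51 for miR-148b-5p (adjusted p = 0.0127, edgeR), each resting on at most 76 counts in a library. Calls were common in that fit, with 90 higher and 97 lower of 357 miRNA tested and a median log2 fold change of -0.27.

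**Figure D4:**
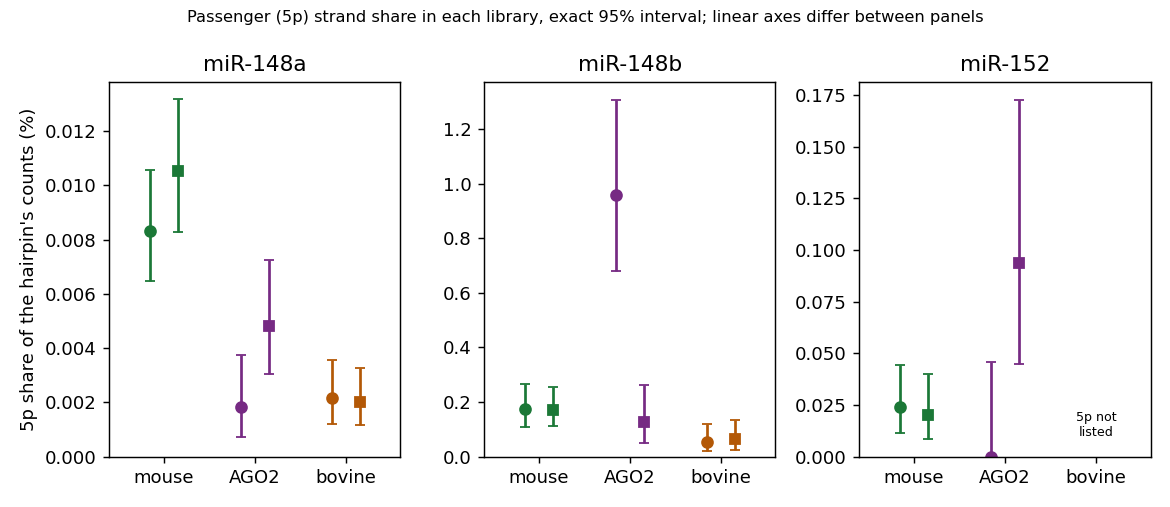
Share of the 5p strand in the counts of each hairpin, in percent on linear axes that differ between panels, with 1 point per library and exact 95% binomial intervals. The shares of miR-148a stay at or under 0.0105%, while AGO2 library 1 stands at 0.958% for miR-148b and 0% for miR-152.

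The 3 hairpins lie on different mouse chromosomes (GRCm38, GENCODE release 21). Mir148a is at chr6:51269812-51269910 on the minus strand, outside any annotated gene other than its own, and the nearest protein-coding gene, Nfe2l3, is 162760 bp away. Mir148b is at chr15:103285125-103285221 on the plus strand, within an intron of Copz1, which encodes a subunit of the COPI vesicle coat. Mir152 is at chr11:96850393-96850465 on the plus strand, within an intron of Copz2, the paralogue of Copz1. Both host genes are on the same strand as their hairpin, with 0 of the spanning coding transcripts having an exon over it. The intergenic hairpin was the source of the most abundant guide and the intronic ones of both minor guides.

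A target of the seed would hold TGCACTG, its reverse complement, in the messenger RNA. This heptamer, searched on the transcript strand alone, was found in 2672 of 21020 mouse 3′UTRs, 12.7%, and with an A after it (TGCACTGA) in 755, 3.59%. The 3′UTR of Dnmt1, 312 bases long, held 1 match at chr9:20907492-20907498 on the minus strand, shown in capitals within the stretch chr9:20907483-20907506:
Dnmt1 3′UTR: gccccacgTGCACTGatgttttta
The base after the match is an A. The 3′UTR of Dnmt3a (6696 bases) and that of Dnmt3b (1331 bases), the de novo methyltransferases, held 0 matches. Only the longest 3′UTR of each protein-coding gene was searched, and no coding sequence, so matches elsewhere in a transcript would be missed. A match describes only the letters, and no messenger RNA was measured in these libraries.

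The miR-29 family, the other miRNA family known for targeting DNA methyltransferases, was set beside it, with no test of the difference between the families. In AGO2 against mouse, where 15.4% of all tested miRNA were higher, 2 of its 3 guides rose, miR-29a-3p (log2 fold change 1.19, adjusted p = 0.0137) and miR-29c-3p (1.63, adjusted p = 0.0488), and miR-29b-3p was at 0.78 (adjusted p = 0.209, edgeR). The median over the 3 was 1.19, beside -0.12 over all tested. In bovine against mouse, where 29.5% of tested miRNA were higher and 25.9% lower, miR-29c-3p rose (1.61, adjusted p = 0.0113), miR-29a-3p fell (-1.28, adjusted p = 0.0146) and miR-29b-3p was at -0.50 (adjusted p = 0.346). Summed, the miR-29 guides were at 32374 and 49447 RPM in mouse, 65469 and 94967 RPM in AGO2, and 25518 and 21961 RPM in bovine, below the sum of the miR-148 and miR-152 guides in each library, most narrowly in AGO2 library 2 (94967 against 97801 RPM).

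A list of 16 other guides abundant in milk or gland gave a further setting. In AGO2 against mouse 2 were higher, miR-200a-3p and miR-141-3p, 7 were lower and 7 did not pass, with a median log2 fold change of -1.25. Over all tested miRNA 15.4% were higher and 12.4% lower, with a median of -0.12. The 7 lower ones were let-7a, let-7b, let-7f and let-7g (5p), miR-200b-3p, miR-200c-3p and miR-375-3p. In bovine against mouse 15 were tested, miR-21-5p being left out by the matching of names. Of these 3 were higher, 4 lower and 8 did not pass, with a median of -0.37. Over all tested miRNA 29.5% were higher and 25.9% lower, with a median of 0.21. miR-146b-5p fell the most of these, with a log2 fold change of -7.37 (adjusted p = 0.000748, edgeR).

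The miRNA whose profile over the 6 libraries was most like that of each guide were taken from 89 matched miRNA with a mean of at least 100 RPM in each group. Likeness was the root mean square difference of log2(RPM + 1), each miRNA being centred on its own mean, and it is a description over 6 libraries that share species, kit and depth within groups. For miR-148a-3p the nearest was miR-194-5p (0.190), followed by miR-148b-3p (0.307) and miR-10b-5p (0.323), against a median of 0.929 over the 89. For miR-148b-3p they were miR-148a-3p (0.307), miR-194-5p (0.343) and miR-143-3p (0.358). For miR-152-3p they were miR-221-3p (0.273), miR-182-5p (0.332) and miR-222-3p (0.339). Among the 89, miR-152-3p ranked 17 in likeness to miR-148a-3p (0.556) and 4 in likeness to miR-148b-3p (0.359). In likeness to miR-152-3p, miR-148b-3p ranked 4 and miR-148a-3p ranked 9. miR-221-3p was at 5457 and 5190 RPM in mouse, 2249 and 2576 RPM in AGO2, and 1568 and 1433 RPM in bovine, highest in both mouse libraries like miR-152-3p.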

How the data were processed

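Small RNA was sequenced in 2 mouse, 2 AGO2 and 2 bovine libraries. Reads without poly-A and 17 to 28 nt long were assigned by the authors, using the miRDeep2 quantifier, to miRBase 20 and predicted precursors (genomes GRCm38 and UMD3.1). The files hold deposited counts for each mature strand, not normalised. A deposited column of normalised counts and the lists of predictions were not used. Differential abundance was tested with edgeR 4.0.16 in R 4.3.3 (TMM, quasi-likelihood F test, adjusted p under 0.05). The test was also run on simulated counts, but only with planted changes larger than those of the guides. Its power for changes of the guides' size is therefore not known. The SE of a log2 fold change is its size over the square root of F. DESeq2 1.42.0, other scalings, filters and matchings, and each library left out in turn were alternatives. Levels, arm shares (exact intervals) and family shares were computed per library with Python 3.11.15, without a test. Named were all members, miRNA with the same seed, the same arms under other species' names, the 3 miRNA most like each guide, and 2 lists (miR-29 and 16 milk or gland guides). Members and lists were chosen with earlier results of these data known.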

Additional observations from a re-analysis of the deposited data

Results flagged for a closer look

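Outside the named members, the bovine list held the passenger arms of the family under names of other species, with signal above the limit that a count of 0 allows. hsa-miR-148a-5p had 31 counts summed over the 2 bovine libraries. rno-miR-148b-5p had 13 counts summed over the same libraries.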

How the results depend on the processing

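The limits are 2 libraries per group and the confounding of species with parity, tissue sampling, kit and pooling. In AGO2 against mouse, precipitation is confounded with lysis and RNA concentration, without a control precipitate. For AGO2 against mouse, without a filter the number of higher miRNA moved from 46 to 29 (of 1750 tested), and leaving out 1 library gave 31 to 62 higher and 21 to 33 lower miRNA, against 46 and 37. The log2 fold change of miR-148b-3p was -0.59 to 0.045 with 1 library left out, above 0 without AGO2 library 1, and the cause was not tested. For bovine against mouse (41 higher, 36 lower), 69 were lower without a filter. With other species' names and no minimum 90 were higher and 97 lower, more miRNA being tested (357). Leaving out 1 library gave 27 to 57 higher and 19 to 51 lower. The values of the guides that gained or lost a call stand beside them in the report. Over all sized reads, including those not assigned to miRNA, the family level was 88827 RPM in mouse, 70749 in AGO2 and 73609 in bovine, so that AGO2 was no longer above mouse. With 1 library alone it was 92396 to 93551 RPM in mouse, 97801 to 101274 in AGO2 and 76853 to 77798 in bovine. Summing counts moved no arm share by over 1 SD. The paper describes left and right glands of 2 mice, so mouse and AGO2 libraries may share animals, which the main fit did not model. The study numbers the samples 1 and 2 in each group, but no source used here says that a mouse and an AGO2 sample of the same number came from the same animal. The fit with that number as a replicate block, chosen after seeing the data, called 60 higher and 61 lower in AGO2 (147 at an unadjusted p under 0.05), and miR-152-3p passed (-0.98, adjusted p = 0.0290, against 0.147 without the block). The differences of library 1 from library 2 in mouse and in AGO2 had a correlation of 0.28 across 299 miRNA, which are not independent, and with 2 pairs this does not establish a pairing.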
